A study of Mus musculus with 18 samples.

Results

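Noncoding host genes of small nucleolar RNAs (snoRNAs) were examined in RNA sequencing data from mouse Neuro2A cells, a neuroblastoma cell line. The 7 genes were *Gas5*, *Snhg1*, *Snhg3*, *Snhg5*, *Snhg6*, *Snhg8* and *Snhg12*, and every locus of the deposited table whose listed symbols included 1 of these names was taken. This gave 7 loci, 1 per gene, of 52179 loci with a symbol, and all 7 were among the 15579 loci whose mean normalized count over the samples was at least 10. A normalized count is the number of reads on a locus divided by 1 scaling factor per sample. The study had 18 samples in 6 groups of 3. Wild type Neuro2A cells were labelled Control, or were transfected with biotinylated mimics at 25 nM, carrying either *miR-92b* or a scrambled sequence (Scr), and each of these treatments was collected as nuclei and as whole cells. RNA bound to the mimics was recovered with streptavidin beads. A PCR check of the pulldown in the study used untransfected cultures as control and samples from separate experiments. That the sequenced control samples were such cultures, that they passed over the beads and that the 3 samples of a group came from separate experiments is not stated in the sources used here, so the p-values measure only the spread between these samples. All libraries were made from RNA selected with oligo-dT beads, so RNA without a poly(A) tail, such as a mature snoRNA, was not the main target of the measurement.

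Most snoRNAs of mammals are not transcribed from genes of their own but lie in introns of a host gene. The host transcript is spliced, and the excised intron is trimmed to a short RNA that joins core proteins and guides the chemical modification of ribosomal RNA in the nucleolus. C/D box snoRNAs guide methylation of the ribose and carry a box C near their 5′ end and a box D near their 3′ end, while H/ACA snoRNAs guide pseudouridylation and carry the bases ACA near their 3′ end. Noncoding hosts such as *Gas5* leave behind a spliced RNA that has no long reading frame. Such spliced host RNAs are known to reach ribosomes in the cytoplasm and to be degraded there by nonsense-mediated decay (NMD), and many host genes start transcription at a run of pyrimidines, the 5′ terminal oligopyrimidine (5′TOP) feature that they share with ribosomal protein genes.

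The host genes lay on 5 chromosomes of the GRCm38 (mm10) build. By GENCODE M21, *Gas5* spans chr1:161034422-161038539 on the plus strand with 25 transcripts, and *Snhg6* lies on the same chromosome at chr1:9941959-9944118 on the minus strand with 5 transcripts. *Snhg1* spans chr19:8723475-8726443 on the plus strand with 18 transcripts, *Snhg5* spans chr9:88521050-88522929 on the minus strand with 6, and *Snhg8* spans chr3:123507552-123508404 on the minus strand with 3. *Snhg12* (chr4:132308623-132311024, plus strand, 10 transcripts) and *Snhg3* (chr4:132348014-132353686, minus strand, 5 transcripts) are neighbours. The annotation places 27 snoRNAs inside these genes, 24 of them in the intron of most host transcripts that span them. *Gas5* holds 9 of them, *Snhg1* holds 8, *Snhg12* holds 4, *Snhg3* and *Snhg5* hold 2 each, and *Snhg6* and *Snhg8* hold 1 each. Among the deposited loci, 25 of the 27 snoRNAs were joined with their host in 1 locus, and the other two, *Snora73b* and *Snora24*, had no locus of their own. The counts of 6 of the 7 loci therefore cover host and snoRNA together and cannot be split. The *Snhg3* locus was in addition joined with the protein-coding gene *Rcc1*, a chromatin-bound exchange factor, so its values are those of both genes. The region listed for *Gas5*, chr1:160811928-161131511, was shared with other loci, 17 in all.

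The mature *miR-92b-3p* (RefSeq, GRCm38.p6, chr3:89227126-89227147, minus strand) is shown because the pulldown was made with this sequence, with the seed of bases 2 to 8, which pairs with targets, in capitals.
mmu-miR-92b-3p: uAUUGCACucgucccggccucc
The 7-base matches to this seed, GTGCAAT and TGCAATA, were searched on the sense strand of every GENCODE transcript of the hosts. They were found in 0 of 72 transcripts, and in 7.53% of 16491 long noncoding transcripts of 300 to 3000 bases. The missing letters say nothing about binding through other sequences.

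Of the 27 snoRNAs, 16 carried TGATGA within the first 20 bases and CTGA within the last 15, the letters of boxes C and D, and these were 60 to 87 bases long. A further 5 carried ACA within the last 8 bases without that box C. Examples of the snoRNAs of the hosts whose counts or lengths differed most between compartments are printed with box C and box D, or ACA, in capitals, at their GRCm38 positions in GENCODE M21. The first pair lies in *Gas5*, the next in *Snhg5*, and the following lines come from *Snhg1*, *Snhg6* and *Snhg12*.
Snord80 (chr1:161037601-161037681, plus strand): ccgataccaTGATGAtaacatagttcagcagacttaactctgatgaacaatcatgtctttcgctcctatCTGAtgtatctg
Snord47 (chr1:161038082-161038158, plus strand): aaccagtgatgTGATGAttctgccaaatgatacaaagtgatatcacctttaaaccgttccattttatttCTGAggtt
Snord50a (chr9:88521529-88521600, minus strand): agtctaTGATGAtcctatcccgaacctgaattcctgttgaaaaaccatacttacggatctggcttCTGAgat
Snord50b (chr9:88521797-88521868, minus strand): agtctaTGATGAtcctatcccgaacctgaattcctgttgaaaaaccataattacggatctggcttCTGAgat
Gm23246 (chr19:8725594-8725660, plus strand): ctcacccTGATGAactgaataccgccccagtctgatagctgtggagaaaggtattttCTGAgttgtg
Snord87 (chr1:9942463-9942549, minus strand): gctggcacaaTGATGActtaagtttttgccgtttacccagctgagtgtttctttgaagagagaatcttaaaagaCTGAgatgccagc
Snord99 (chr4:132310691-132310764, plus strand): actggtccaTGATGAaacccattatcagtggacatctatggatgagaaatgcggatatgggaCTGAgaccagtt
Snora61 (chr4:132310240-132310369, plus strand): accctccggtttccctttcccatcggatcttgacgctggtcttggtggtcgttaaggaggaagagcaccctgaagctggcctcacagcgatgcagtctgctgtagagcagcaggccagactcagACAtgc
*Snord50a* and *Snord50b* of *Snhg5* were identical at 71 of 72 positions and differed by C50A, counted from 1 at the 5′ end of *Snord50a*. Both lie in the 1 locus counted for *Snhg5*.

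RefSeq promoter windows (GRCm38.p6) were matched for 6 of the 7 genes, with 7 start sites, since *Gas5* has 2. The 50 bases from 20 before the start to 30 from it onwards are shown for each start, because many host genes share the 5′TOP feature, with the longest run of C or T that begins within 5 bases of the start in capitals.
Gas5, upstream start (chr1:161034581-161034630, plus strand): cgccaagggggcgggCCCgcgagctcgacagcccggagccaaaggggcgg
Gas5, downstream start (chr1:161035146-161035195, plus strand): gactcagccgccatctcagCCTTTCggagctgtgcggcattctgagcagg
Snhg1 (chr19:8723467-8723516, plus strand): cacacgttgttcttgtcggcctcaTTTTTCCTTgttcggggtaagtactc
Snhg3 (chr4:132353657-132353706, minus strand): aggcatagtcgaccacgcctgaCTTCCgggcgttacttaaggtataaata
Snhg5 (chr9:88522868-88522917, minus strand): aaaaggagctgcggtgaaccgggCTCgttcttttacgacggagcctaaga
Snhg8 (chr3:123508307-123508356, minus strand): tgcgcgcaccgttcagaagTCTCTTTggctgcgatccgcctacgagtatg
Snhg12 (chr4:132308658-132308707, plus strand): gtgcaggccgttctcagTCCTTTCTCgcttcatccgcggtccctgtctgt
A run of at least 5 pyrimidines was present at 5 of the 7 starts, against 26.4% of 32851 mouse promoters of this table. The runs were 9 bases long at *Snhg1* and *Snhg12*, 7 at *Snhg8*, 6 at the downstream start of *Gas5* and 5 at *Snhg3*, and 3 at the upstream start of *Gas5* and at *Snhg5*. The letters TATA, read on the sense strand between 50 and 11 bases before the start, were also present at 5 of the 7 starts, against 8.02% of all promoters. The starts are those of RefSeq and were not measured in these libraries.

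Depth on named loci ran from 3752991 to 22920037 reads, of which the 7 host loci took 0.0334% to 0.0494%. In Neuro2A cells the sympathetic neuroblastoma factors *Phox2a*, *Hand2*, *Gata2*, *Gata3* and *Isl1* and the neuronal gene *Stmn2* were detected in all 18 samples, while the neurofilament genes *Nefl* and *Nefm* were at 0 in 18 and 17. Among markers of other cell types, *Mbp*, *Gfap* and *Pecam1* had counts in 17 or 18 samples (highest values 202, 75.7 and 77.4), and 8 more were at 0 in 13 to 17 samples. The 12 cytoplasmic reference mRNAs, such as *Gapdh* and *Actb*, summed to 21097 to 38172 normalized counts in the nuclear samples and to 70000 to 136411 in 8 of the 9 whole cell samples. Whole cell *miR-92b* sample 3 stood apart at 242370, and its 9 nuclear reference RNAs, such as *Malat1*, summed to 34865 against 57571 to 86840 in the other whole cell samples. An alternative fit left out this library and nuclear Scr sample 1. In nuclei it called 216 loci between *miR-92b* and Scr and 309 between Scr and control, each 0 with all samples, and leaving out nuclear Scr sample 1 alone gave 49 and 69.

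The first comparison asked how host RNAs were divided between nuclei and whole cells, first over the 3 treatments together. On average *Gas5* was higher in nuclear samples and *Snhg5* was lower, and both passed the test although samples of the 2 compartments overlapped. The other 5 loci did not pass the test. Because all values are scaled by 1 factor per library, fewer cells and less RNA per cell cannot be told apart in such bulk samples. The two-sided test was limma on log2(normalized count + 1), adjusted over all 15579 loci by the method of Benjamini and Hochberg, and a locus was called at an adjusted p below 0.05. It called 2 of the 7 host loci, against 31.0% of all tested loci, so the share of hosts called was close to the background.

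*Gas5*, named for its rise in growth-arrested cells, had normalized counts of 494, 407 and 539 in nuclear control samples, 523, 291 and 431 in nuclear Scr samples and 606, 558 and 468 in nuclear *miR-92b* samples. In whole cells the counts were 300, 289 and 263 in control, 211, 267 and 336 in Scr and 409, 297 and 150 in *miR-92b* samples. The nuclear samples thus lay higher, and the 2 sets of 9 overlapped, with whole cell control sample 1, Scr sample 3 and *miR-92b* samples 1 and 2 inside the nuclear range. The mean over treatments was 1.73-fold higher in nuclei, a log2 difference of 0.79 with a standard error of 0.18 (limma, adjusted p = 0.00133). It was 0.60 without the 2 libraries named above (adjusted p = 0.00321).

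*Snhg5*, the host of the paired snoRNAs *Snord50a* and *Snord50b*, moved the other way. Its nuclear counts were 364, 386 and 459 in control, 353, 564 and 401 in Scr and 458, 405 and 445 in *miR-92b* samples. The whole cell counts were 667, 732 and 768 in control, 931, 440 and 559 in Scr and 630, 588 and 1035 in *miR-92b* samples. Only whole cell Scr samples 2 and 3 fell within the nuclear range. The nuclear mean was 1.62-fold lower (log2 difference -0.70, standard error 0.15, limma adjusted p = 0.00105), and without the same 2 libraries the difference was -0.56 (adjusted p = 0.00358).

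The ratio of *Gas5* to *Snhg5* within a library does not depend on its scaling factor. It ran from 0.516 to 1.48 in the 9 nuclear samples and from 0.145 to 0.650 in the 9 whole cell samples. Nuclear Scr sample 2 was the only nuclear sample within the whole cell range, and the next lowest nuclear ratio was 1.05.

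**Figure D1:**
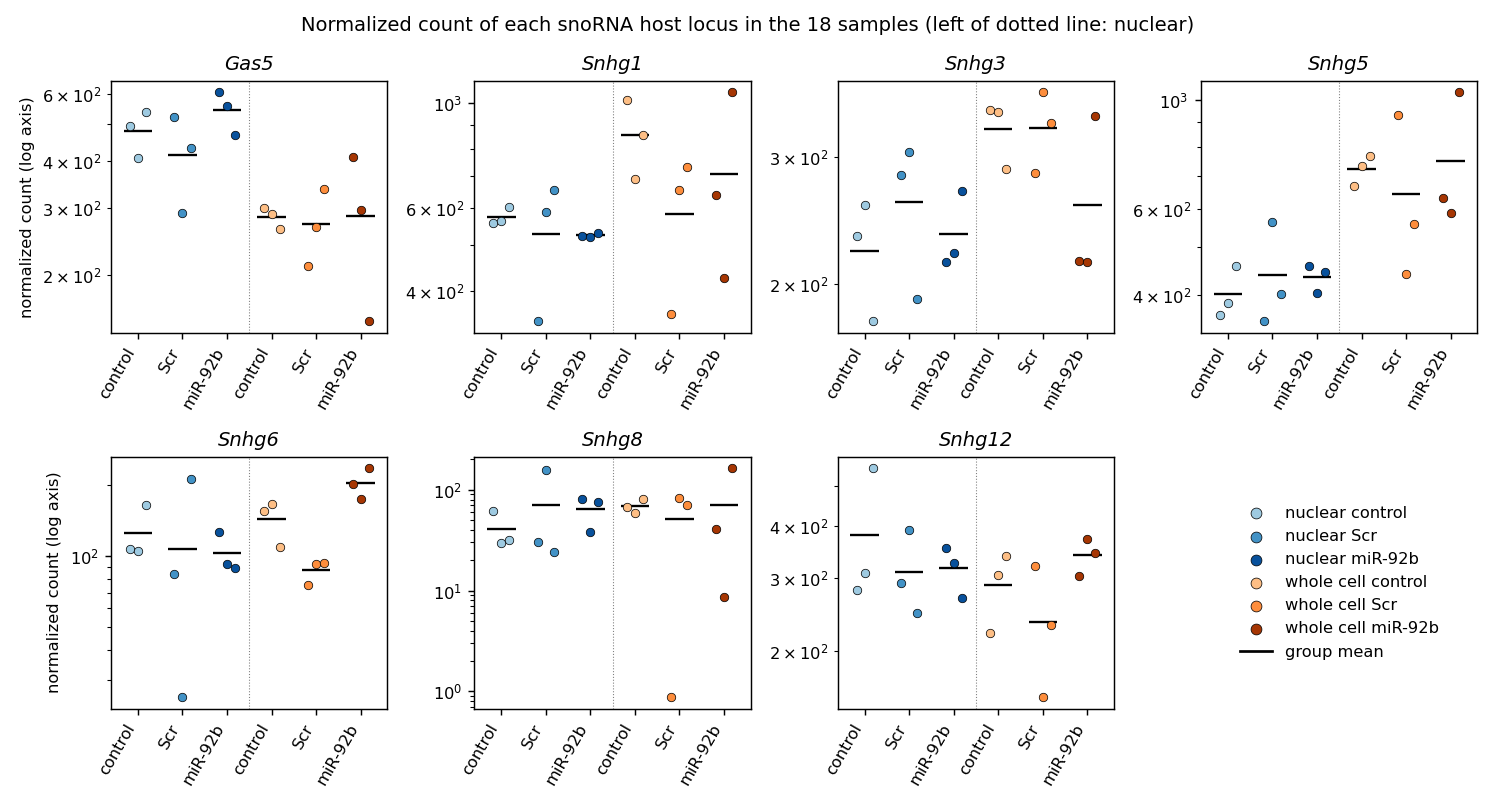
Normalized count (log axis) of each host locus in every sample, with nuclear groups left and whole cell groups right of the dotted line, 1 point per sample and a bar at the mean of 3. *Gas5* is higher in most nuclear samples (291 to 606 against 150 to 409), *Snhg5* is lower (353 to 564 against 440 to 1035), and *Snhg8* spreads most.

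The other 5 hosts did not pass the test between compartments. *Snhg1*, which holds 8 snoRNAs, ranged from 344 to 653 normalized counts in nuclear samples and from 358 to 1052 in whole cell samples. The whole cell samples were thus more scattered, and the log2 difference of -0.34 (standard error 0.17) did not pass the test (limma, adjusted p = 0.138). It passed with sample weights (-0.41, adjusted p = 0.0137), without whole cell Scr sample 1 (-0.44, adjusted p = 0.0454) or without whole cell *miR-92b* sample 2 (-0.44, adjusted p = 0.0380). *Snhg3*, counted together with *Rcc1* and host of the long H/ACA RNA *Snora73a*, ranged from 177 to 305 in nuclear and from 214 to 369 in whole cell samples, with a log2 difference of -0.35 (standard error 0.16). It was the 1 host that reached an unadjusted p below 0.05 in limma without passing after adjustment (adjusted p = 0.107). *Snhg12*, which holds both H/ACA and C/D box snoRNAs, was the most alike in the 2 compartments by its medians of 308 and 305 (log2 difference 0.22, standard error 0.18, adjusted p = 0.348).

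*Snhg6*, the host of *Snord87*, and *Snhg8*, the host of *Snora24*, had the lowest median counts and the largest standard errors. *Snhg6* ranged from 25.3 to 212 in nuclear and from 75.4 to 235 in whole cell samples, and the log2 difference was -0.45 with a standard error of 0.31 (limma, adjusted p = 0.283). *Snhg8* had between 1 and 269 recovered reads per sample. Its normalized count was 0.877 in whole cell Scr sample 1, 8.57 in whole cell *miR-92b* sample 2 and 164 in whole cell *miR-92b* sample 3, and 158 in nuclear Scr sample 2 beside 30.5 and 24.0 in the other nuclear Scr samples. The log2 difference of 0.33 had a standard error of 0.69 (adjusted p = 0.750), and it turned to -0.27 without whole cell Scr sample 1 and to -0.02 without whole cell *miR-92b* sample 2, so no direction can be given for *Snhg8*.

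Within single treatments the same contrast has 3 samples on each side. How many of all loci had groups of 3 without overlap was not counted, so such separation is only described. In control samples limma called 1 of the 7 hosts, against 9.85% of all loci. This was *Snhg5*, 1.80-fold lower in nuclei (log2 difference -0.84, standard error 0.26, adjusted p = 0.0397) with groups that did not overlap. The call was lost without any 1 of the 6 control samples (adjusted p = 0.0646 to 0.128), while the difference stayed between -0.94 and -0.78. In the same samples *Gas5* was higher in all 3 nuclear than in all 3 whole cell samples (log2 difference 0.75, standard error 0.30). *Snhg1* and *Snhg3* were lower in all 3 (-0.55 and -0.57). None of them passed the threshold (limma, adjusted p = 0.130, 0.279 and 0.227). By limma 2 hosts and 3541 of all loci had an unadjusted p below 0.05 in control samples. In Scr samples 0 of 7 hosts were called, against 5.17% of all loci. No host and 3448 of all loci reached an unadjusted p below 0.05 there, and edgeR and DESeq2 on recovered reads also called 0. In *miR-92b* samples 1 of 7 was called, against 13.3% of all loci. It was *Gas5*, 2.05-fold higher in nuclei (log2 difference 1.03, standard error 0.30, adjusted p = 0.0260), and the call was lost without whole cell *miR-92b* sample 3, when the difference was 0.63 (adjusted p = 0.192). It was also lost without nuclear *miR-92b* sample 1 (0.95, adjusted p = 0.102) or sample 2 (1.01, adjusted p = 0.0869), with the FPKM table (0.73, adjusted p = 0.451) and with sample weights (0.62, adjusted p = 0.0812). The fit with sample weights called 1 host, *Snhg5*. *Snhg5* gave -0.74 in these samples (adjusted p = 0.0621) and *Snhg6* -0.99 (adjusted p = 0.235), both with groups that did not overlap. *Snhg5* passed without whole cell *miR-92b* sample 1 (-0.84, adjusted p = 0.0477) or sample 2 (-0.89, adjusted p = 0.0331).

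**Figure D2:**
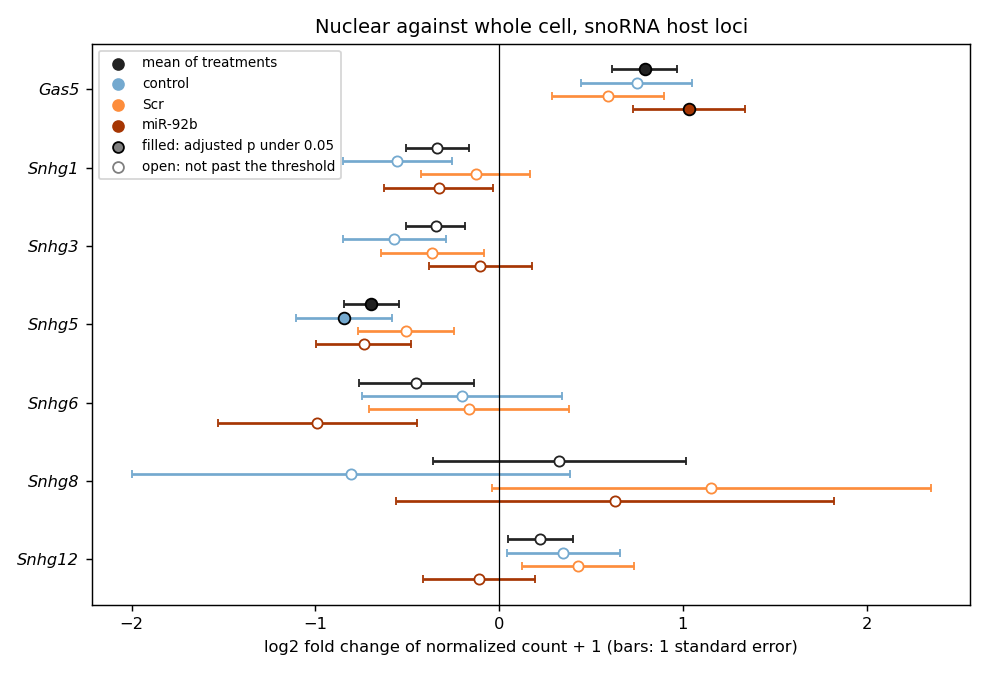
Log2 fold change of the normalized count, nuclear over whole cell, for each host over all treatments and within each treatment, with bars of 1 standard error and filled points where the adjusted p is under 0.05. *Gas5* lies above 0 and *Snhg5* below 0 in each treatment, and *Snhg8* has the widest bars.

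The table of FPKM values holds fragments divided by transcript length and library size. Levels of different genes can be compared on this scale only as far as the assigned transcript lengths hold. In nuclear samples *Gas5* had the highest median of the hosts at 114 FPKM (21.9 to 182), followed by *Snhg1* at 56.0 (39.9 to 74.6) and *Snhg5* at 41.0 (25.5 to 75.2). *Snhg12* (26.6), *Snhg6* (23.7), *Snhg3* (20.8) and *Snhg8* (15.4) followed, and the range of every host in this order overlapped that of the next. In whole cell samples *Snhg1* led with a median of 164 FPKM (85.6 to 311) and *Snhg5* followed at 133 (54.1 to 192). *Gas5* came next at 66.3 (38.8 to 117), then *Snhg6* at 62.6, *Snhg12* at 56.2, *Snhg8* at 31.1 and *Snhg3* at 20.2, again with overlapping neighbours.

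On the FPKM scale the comparison of compartments differed from that of the counts. Limma on log2(FPKM + 0.1) called 4 of the 7 hosts over all treatments, against 25.1% of all loci, and all 4 were lower in nuclei. They were *Snhg1* with a log2 difference of -1.51 (adjusted p = 0.000172), *Snhg5* with -1.47 (adjusted p = 0.000517), *Snhg6* with -1.33 (adjusted p = 0.00746) and *Snhg12* with -1.12 (adjusted p = 0.00826). The value of *Gas5* was 0.49 and no longer passed (adjusted p = 0.2995). *Snhg12* thus had opposite signs on the 2 scales, 0.22 by counts and -1.12 by FPKM, and *Snhg3* had -0.35 and 0.16. A count over an FPKM value is proportional to the transcript length that the authors' software assigned to the reads of a locus in a sample. This implied length was put into bases with 354 single-transcript loci of known length, each of at least 1000 bases and with at least 50 reads in every sample. It is approximate, since the middle 50% of those loci lay between 0.835 and 1.33 times their annotated length. The spread for shorter transcripts, such as many of the hosts, was not measured.

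The implied length of *Snhg1* was about double in nuclei. It was 1107, 1224 and 1120 bases in nuclear control samples, 1024, 1020 and 1045 in nuclear Scr samples and 1081, 1062 and 1134 in nuclear *miR-92b* samples. In whole cells it was 548, 533 and 456 bases in control, 526, 608 and 464 in Scr and 587, 609 and 437 in *miR-92b* samples. The 9 nuclear and 9 whole cell values did not overlap, and the nuclear length was 2.07 times that of whole cells (limma over 9952 loci with values in all samples, adjusted p = 3.02e-06). Of all these loci 24.8% differed in implied length, and 5 of the 7 hosts did. For *Snhg1* the difference also passed within each treatment, at 2.25 times in control (adjusted p = 0.000633), 1.95 times in Scr (adjusted p = 0.00424) and 2.03 times in *miR-92b* samples (adjusted p = 0.00109). GENCODE lists *Snhg1* transcripts from 312 to 2728 bases with a median of 602.5.

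*Snhg12* and *Snhg6* showed the same direction. The implied length of *Snhg12* was 702 to 1837 bases in nuclear samples and 235 to 805 in whole cells, 2.34 times longer in nuclei (limma, adjusted p = 0.00392), and only nuclear *miR-92b* sample 2, at 702 bases, lay inside the whole cell range. For *Snhg6* the nuclear values lay close together, from 485 to 543 bases, and those of whole cells ran from 236 to 552, with whole cell Scr sample 1 the only one above 345 (1.69 times, adjusted p = 0.00123). *Snhg5* was 1.57 times longer in nuclei (785 to 1877 against 448 to 1347 bases, adjusted p = 0.0173). In *Snhg3*, joined with *Rcc1*, the assigned length was shorter in nuclei, 0.647 times that of whole cells (adjusted p = 0.0443), a call that 15 of 22 alternative fits did not give. *Gas5* (1.14 times, adjusted p = 0.690) and *Snhg8* (1.37 times, adjusted p = 0.122) did not pass, although *Snhg8* did without nuclear Scr sample 3 (adjusted p = 0.0331). Within treatments, *Snhg6* passed in control samples (1.89 times, adjusted p = 0.0354), and apart from *Snhg1* no other host passed in any of them. The share of all loci that passed was 2.48% in control, 1.47% in Scr and 3.16% in *miR-92b* samples. Some implied lengths lay outside the annotated transcripts of their host. These transcripts run from 440 to 1221 bases for *Snhg5*, 422 to 1538 for *Snhg12* and 400 to 816 for *Snhg6*. For *Snhg8* the lowest implied length was 202 bases and the shortest annotated transcript 448. The implied length of *Gas5* ran from 341 to 1607 bases within the nuclear samples. The order of the hosts by FPKM thus rests on assigned lengths that varied between samples. What set these lengths was not tested.

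**Figure D3:**
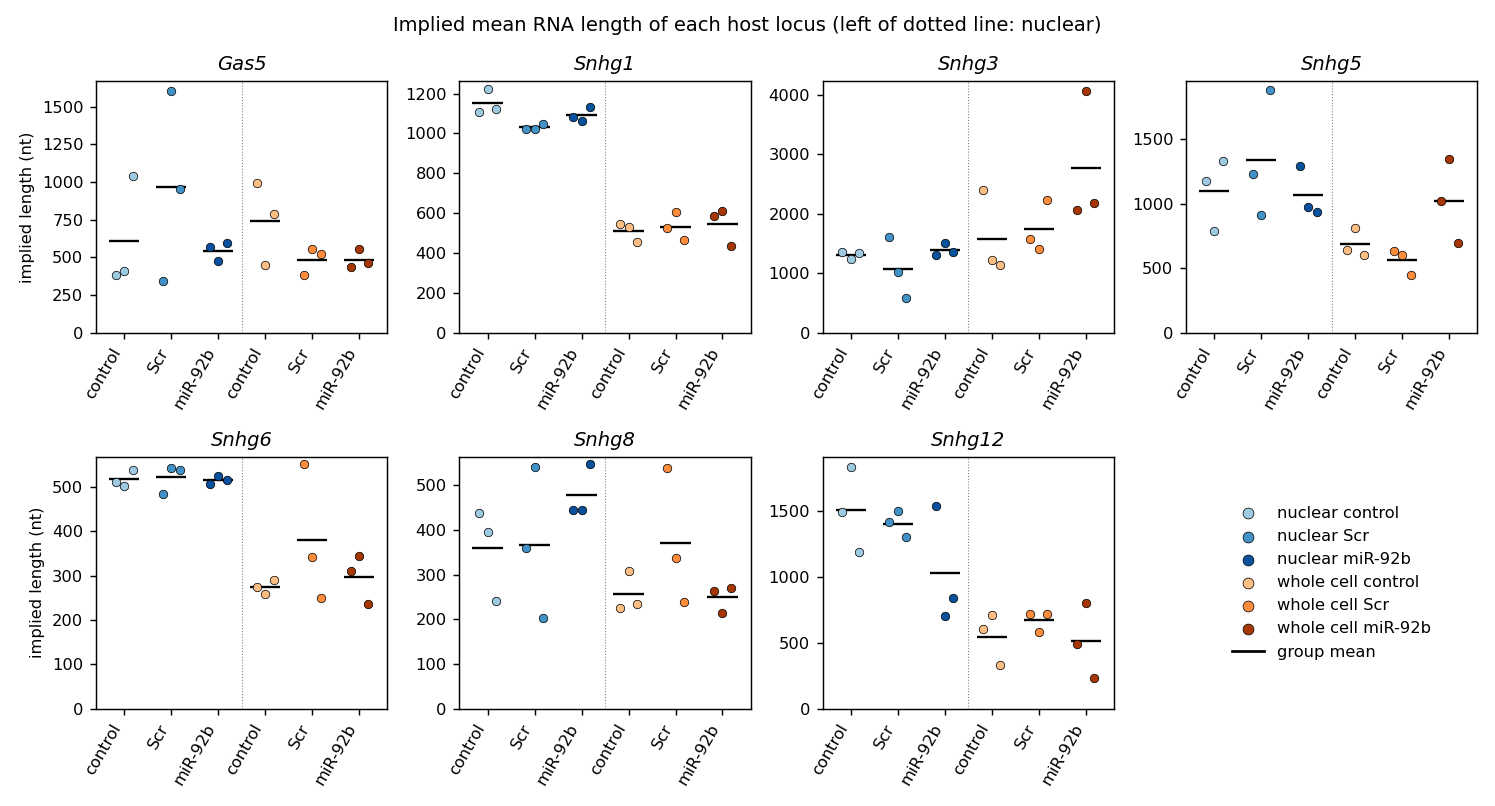
Implied mean RNA length in bases, from the ratio of normalized count to FPKM, in every sample, with nuclear groups left and whole cell groups right of the dotted line and a bar at the mean of 3. The *Snhg1* values of 1020 to 1224 bases in nuclei and 437 to 609 in whole cells do not overlap.

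Other genes of snoRNA biology were read from lists, for which the median over all tested loci, 0.14 on the log2 scale, is the reference. Of all tested loci 15.3% were called higher and 15.8% lower in nuclei, 31.0% together, and the counts called in each list stand against these shares. That median was 0.23 after samples were rescaled to the same median and 0.11 after quantile normalization, and *Gas5* and *Snhg5* kept their direction and call under both. The 7 hosts had a median log2 difference of -0.34 between nuclei and whole cells. Of 16 tested loci of other noncoding hosts, 6 of them listed for *Snhg14*, 5 were higher and 1 was lower in nuclei, with a median of 0.60. The loci of *Snhg14*, *Meg3* and *Rian* in this list are also in the list of nuclear reference RNAs. The higher ones with the most counts were *Snhg17* (0.71, limma adjusted p = 7.73e-05), the *Snhg14* locus joined with *Snrpn* (0.57, adjusted p = 0.000495), *Snhg15* (0.76, adjusted p = 0.000121) and the *Snhg4* locus (0.39, adjusted p = 0.00248), which is joined with the coding gene *Matr3*. *Zfas1*, the host of *Snord12* snoRNAs, was the 1 lower locus (-0.58, adjusted p = 0.0124) and is named, like *Prpf39* among the coding hosts, after its value was seen.

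Most protein-coding hosts were lower in nuclei. Their mRNAs include those for ribosomal proteins, translation factors and chaperones, among others. Of 32 loci, with *Rcc1* left to the *Snhg3* locus, 26 were lower and 1 higher, and the rest did not pass. The median was -1.98. The 4 called loci with the most counts were *Eef2*, a translation elongation factor (log2 difference -2.90), *Hspa8*, a chaperone (-2.91), and the ribosomal protein genes *Rps2* (-2.83) and *Rpsa* (-2.86). *Prpf39*, a splicing factor, was the 1 host mRNA that was higher (0.44, limma adjusted p = 0.0128). Of 12 cytoplasmic reference mRNAs 11 were lower in nuclei and 0 were higher (median -2.55), with *Eef1a1* at -3.53 and *Rplp0* at -3.67. Of 11 loci of nuclear reference RNAs, 5 were higher and 0 lower (median 0.98). Among these, *Malat1* differed by 1.08, *Neat1* by 1.06 and *Kcnq1ot1* by 0.98. Every other locus of this list belongs to *Snhg14*, *Meg3* or *Rian* and is also counted among the other noncoding hosts, so these lists are not independent.

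Genes that act on host RNAs or their snoRNAs were divided. Of 8 loci of core snoRNA-binding proteins, 2 were higher and 3 lower in nuclei (median -0.30). *Nop58*, a C/D box core protein, was higher by 0.40 (limma, adjusted p = 0.0160) and *Gar1*, an H/ACA core protein, by 0.59 (adjusted p = 0.0368). *Nhp2l1*, which binds the C/D box kink-turn, gave -1.63 (adjusted p = 4.91e-06), and *Dkc1*, the pseudouridine synthase and itself a host, gave -1.04 (adjusted p = 0.00209). Of 10 NMD factors 2 passed, among them *Smg6*, an endonuclease, which was higher (0.62, adjusted p = 0.00230), and the other 8 did not pass (median of the list -0.21).

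**Figure D4:**
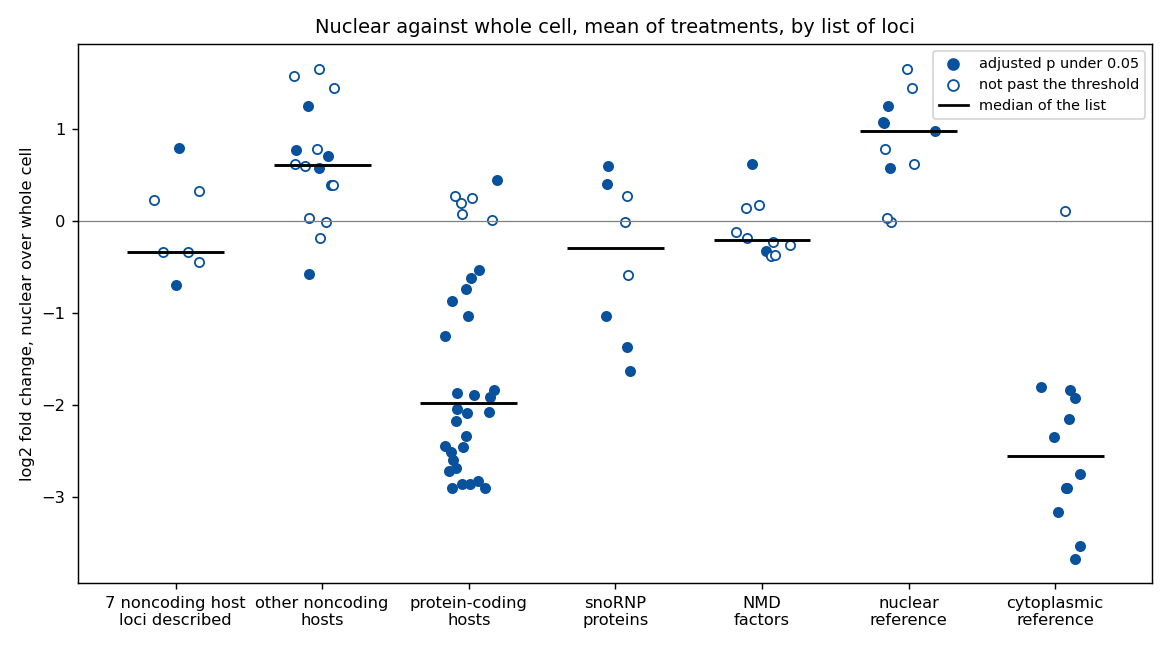
Log2 fold change, nuclear over whole cell over all treatments, of every tested locus in each list, 1 point per locus, filled where the adjusted p is under 0.05, with a bar at the median. The 7 hosts spread from -0.70 to 0.79 around a median of -0.34, protein-coding hosts have a median of -1.98 and other noncoding hosts one of 0.60. The other noncoding hosts share the loci of *Snhg14*, *Meg3* and *Rian* with the nuclear reference.

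The comparison of *miR-92b* with Scr asked which RNAs the *miR-92b* mimic recovered beyond a scrambled mimic. In nuclear samples limma called 0 of the 7 hosts and 0% of all loci (687 of 15579 had an unadjusted p below 0.05, none of them a host), edgeR called 0 loci and DESeq2 called 1, no host. Without the 2 libraries named above, when limma called 216 loci, 0 hosts were called. *Gas5* had the largest nuclear difference of the hosts, 0.42 with a standard error of 0.30, and its 3 *miR-92b* values of 606, 558 and 468 overlapped the Scr values of 523, 291 and 431. The other 6 hosts lay between -0.12 and 0.39, and *Snhg1* (0.04, standard error 0.30), *Snhg5* (0.01, standard error 0.26) and *Snhg12* (0.05, standard error 0.31) were nearest to 0. The 95% interval of the difference ran from -0.21 to 1.05 for *Gas5*, from -0.57 to 0.66 for *Snhg1* and from -0.52 to 0.55 for *Snhg5*, and was widest for *Snhg8*, from -2.14 to 2.78.

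In whole cell samples limma called 0 of the 7 hosts and 0.00642% of all loci (1515 had an unadjusted p below 0.05). EdgeR called 1 locus and DESeq2 176, and each called 0 hosts. The 1 locus became 77 without whole cell *miR-92b* sample 1, 13 without whole cell Scr sample 2 and 2 to 5 without any other sample compared, and in each case 0 hosts were called. *Snhg6* was the 1 host with an unadjusted p below 0.05. Its counts were 201, 174 and 235 in *miR-92b* samples and 75.4, 92.1 and 93.0 in Scr samples. These groups did not overlap, a separation not counted over all loci, and the control samples lay between at 155, 166 and 109. The log2 difference was 1.21 (standard error 0.54), which did not pass after adjustment (limma, adjusted p = 0.488). *Snhg12* gave 0.59 (standard error 0.31, adjusted p = 0.540) and the other 5 hosts lay between -0.38 and 0.85. In this comparison whole cell *miR-92b* sample 3 held the highest value of *Snhg1* (1052), *Snhg5* (1035), *Snhg6* and *Snhg8* and the lowest of *Gas5* (150) among the 9 whole cell samples. The part of this library's high cytoplasmic mRNA level in these values was not tested, and without it and nuclear Scr sample 1 the difference of *Snhg6* was 1.10 (adjusted p = 0.655).

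**Figure D5:**
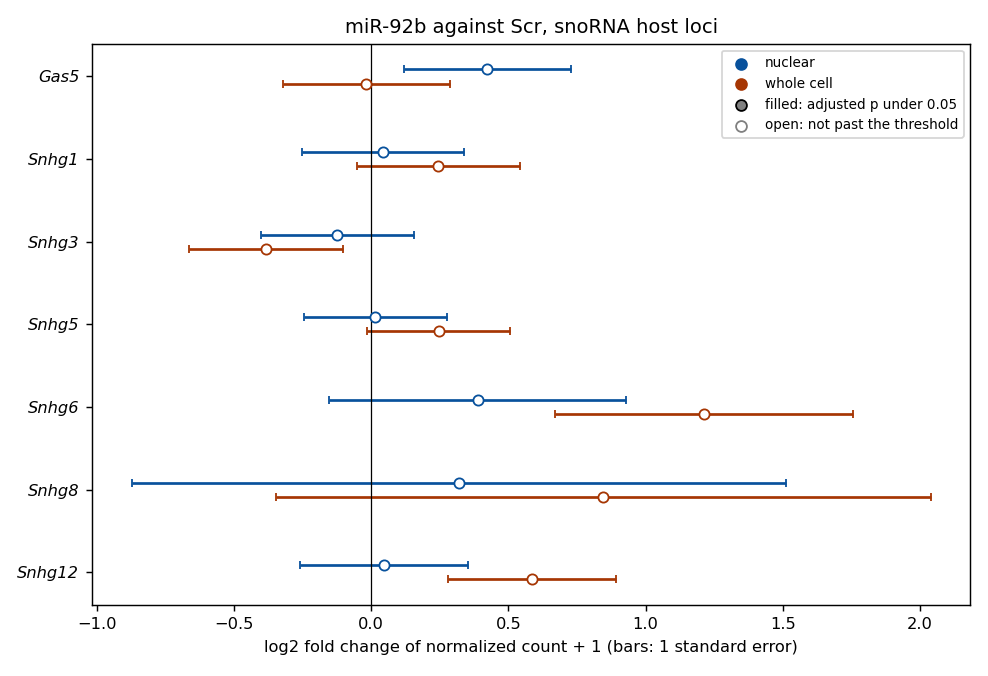
Log2 fold change of the normalized count, *miR-92b* over Scr, for each host in nuclear and whole cell samples, with bars of 1 standard error. All points are open, since no host passed the threshold, and the largest whole cell value is that of *Snhg6* at 1.21.

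The effect of *miR-92b* against Scr was also compared between compartments, and 0 of the 7 hosts were called, against 0.00642% of all loci (1123 had an unadjusted p below 0.05, DESeq2 called 40, and limma called 0 to 5 with 1 sample left out). The differences between the 2 effects ran from -0.82 for *Snhg6* (standard error 0.77) to 0.44 for *Gas5* (standard error 0.43), and no host had an unadjusted p below 0.05. Comparisons with the control samples gave 0 called hosts as well, by limma, edgeR and DESeq2 and with no host at an unadjusted p below 0.05. The share of all loci called was 0% for *miR-92b* against control in nuclei, 0.00642% in whole cells, and 0% for Scr against control in each compartment. For *miR-92b* against control an unadjusted p below 0.05 was reached by 50 loci in nuclei and 731 in whole cells, and for Scr against control by 916 and 793. DESeq2 called 0 loci in nuclei for both, and in whole cells 21 for *miR-92b* and 37 for Scr. Beside the counts without nuclear Scr sample 1 given above, Scr and control differed by limma at 12 in whole cells without whole cell Scr sample 2, while *miR-92b* and control differed in whole cells at 7, 4 and 2 loci without *miR-92b* samples 1, 2 and 3. No host was among them. The values of the hosts in whole cells are given side by side, since these comparisons share control samples. *Snhg8* was at -0.79 with *miR-92b* and -1.63 with Scr (standard error 1.19 for each), and *Snhg1* was at -0.35 and -0.60. *Snhg6* was at 0.51 and -0.70, and *Snhg12* was at 0.25 and -0.33. *Gas5* was at -0.11 and -0.09, *Snhg3* at -0.38 and 0.0047, and *Snhg5* at 0.01 and -0.24. For *Snhg6* the 3 *miR-92b* samples lay above and the 3 Scr samples below all control samples, a separation that was not counted over all loci.

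Patterns of other genes over the 18 samples were set beside those of the hosts by Pearson correlation of log2(normalized count + 1), as a description. The values compared come from the same libraries, which fall into 2 compartments. The locus most like *Gas5* was the one that holds *Krcc1* (r = 0.93), the one most like *Snhg5* was *Ctbp1* (r = 0.93), and those most like *Snhg1* and *Snhg6* were *Itm2b* (r = 0.89) and *Cdk2* (r = 0.88). *Snhg3* was nearest to the locus of *Irak1* (r = 0.85), *Snhg8* to *Ccndbp1* (r = 0.89) and *Snhg12* to *Extl1* (r = 0.78). No 2 hosts had the same nearest locus. Between the hosts themselves r ran from -0.84 to 0.65 over 21 pairs with a median of 0.0089, so loci near their mean profile are not given.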

How the data were processed

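RNA from nuclear and whole cell Neuro2A samples was sequenced after poly(A) selection with a stranded kit. Per the methods and labels, the authors used Trimmomatic 0.30 for trimming, TopHat2 for alignment to the mouse build GRCm38 (mm10), and Cufflinks for loci. Which releases of TopHat2, Cufflinks and the annotation they used is not given in the sources used here. Deposited normalized counts are a signal, fragments per locus divided by 1 factor per sample, and the deposited FPKM values relate them to transcript length. Columns of the authors' own comparisons (fold changes, p-values) were not used.

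Divided by what 1 read is worth in its sample, 99.998% of 635205 values came out whole within 0.02 reads, so reads were recovered for depth, edgeR 4.0.16 and DESeq2 1.42.0. The design assumed normalized counts, and limma 3.58.1 (R 4.3.3) with its trend option was fitted to log2(normalized count + 1) of the 6 groups in 1 model, over 15579 loci with a symbol and a mean of at least 10, and p-values were adjusted by Benjamini-Hochberg over these loci. Loci without a symbol (115957, with 4.51% to 15.3% of reads) were left out. All columns of the count and FPKM tables were mapped to samples. The members and lists were chosen with earlier results of these data known. Named genes were all members, up to 4 called loci with the highest mean per list, and the nearest loci by correlation. *Meg3* and *Rian* are named because they stand in more than 1 list. The analysis was tested on simulated data. Alternatives were other pseudocounts, filters, scalings, models and tools, the FPKM table, the replicate number as a block, and each sample left out. The implied length (normalized count over FPKM, limma on its log2) was added after seeing the data, as was the fit without 2 libraries. Some genes of the marker and pathway lists are not reported here by name.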

Additional observations from a re-analysis of the deposited data

How the results depend on the processing

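Over the 3 treatments, the directions of *Gas5* and *Snhg5* were kept in all 31 alternative fits, and so were their calls, except that of *Gas5* with the FPKM table. Leaving out 1 sample gave 2 to 3 called hosts, sample weights gave 3 and the FPKM table gave 4. With the FPKM table *Snhg12* turned to -1.12 and *Snhg3* to 0.16. *Snhg8* turned to -0.18 with FPKM, to -0.12 with edgeR and -0.13 with DESeq2, and its values with 1 sample left out ran from -0.27 to 0.67. The cause was not tested.

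In control samples the number of called hosts, 1, became 0 with a filter at a mean of 1 or none, with samples rescaled to the same median and with quantile normalization. It was 3 with only the groups compared and with sample weights, 2 with the FPKM table and without the 2 libraries left out after seeing the data, and 0 to 0 with 1 sample left out. In *miR-92b* samples 1 became 0 with no filter, with only the groups compared and without those 2 libraries, 2 with FPKM and with DESeq2, and 0 to 2 with 1 sample left out. *Gas5* was not the host called there with FPKM or with sample weights. In Scr samples 0 became 1 with FPKM. Every comparison of *miR-92b* or Scr with another treatment had 0 called hosts in all alternatives. The implied length gave 5 called hosts, 4 to 5 with 1 sample left out and 6 with sample weights.

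Same-numbered samples of different groups did not deviate together (correlations from -0.044 to 0.109). With 3 samples per group this cannot show whether they shared a culture or experiment, which the sources used here do not state. With the replicate block 2 hosts were called over the treatments and 1 each in control and *miR-92b* samples, as without it, and the block took the call from the implied length of *Snhg3* (adjusted p = 0.0549). A model of only the groups compared could not be fitted apart from the main one for the mean over treatments, which uses all groups. *Snhg8* had 1 to 269 reads per sample, and such counts cover reads, not independent molecules.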
